A study of Mus musculus with 4 samples.

Results

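RBPJ-bound regions within the first introns of protein-coding genes were described in alveolar macrophages (AMs), which live in the airspace of the lung. A region belonged here when it was at most 3000 bp wide, its midpoint lay in intron 1 of a protein-coding transcript and in no exon, and it was more than 1 kb from any transcription start site (TSS). Of the 25454 consensus regions, which held at least 1 peak of each RBPJ library, 4633 met this rule (18.2%, Wilson 95% interval 17.7 to 18.7). They are called first intron regions here. The comparison set was 4050 later intron regions (15.9%, 15.5 to 16.4), chosen by the same rule but with the midpoint in intron 2 or beyond and in no intron 1. The rule used position and width, not peak strength or sequence.

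The series profiled RBPJ by HT-ChIPmentation, in which immunoprecipitated chromatin is tagmented on the beads so that a library can be made from few sorted cells. It comprised 2 RBPJ libraries (replicates 1 and 2) and 2 input libraries, all from WT AMs collected by bronchoalveolar lavage and FACS. The methods of the study give the mice as 9-wk-old C57BL/6J animals, and the antibody was an Abcam anti-RBPJ reagent. The inputs had no list of their own and entered through the peak calling. Whether the replicates were taken from different mice is not given in the labels, and there was no second condition. Peaks of the replicate 1 list numbered 106228 and those of the replicate 2 list 47224. Fold is the enrichment of a peak summit over background, as the peak caller gave it for each library.

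RBPJ, also called CSL, is the DNA-binding protein through which Notch receptors act. A ligand such as DLL4 releases the Notch intracellular domain, which joins RBPJ and a Mastermind coactivator on DNA. Without Notch, RBPJ can sit on DNA with corepressors. First introns start close to the promoter and often hold enhancers that act on the same gene. Later introns of long genes lie farther from the start and share less of the promoter's open chromatin.

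Sequences around the summits are shown for 3 sets, with the RBPJ core motif TGGGAA, or its extended form GTGGGAA, in capitals on either strand. Each run is 101 bases, written 5′ to 3′ along the host gene from the GRCm38 (mm10) genome, with coordinates and strand in brackets. The host gene is the protein-coding gene whose intron 1 holds the midpoint. Where several transcripts qualified, the one with the nearest TSS was taken as host. The summit of a region is that of the library with the higher fold there. The first set is 4 of the 5 strongest regions, ranked by the lower of their folds in replicates 1 and 2 (the lower fold) and centered on the summit, shown because they were the strongest and held no core motif in these bases.
Trim7 (chr11:48834454-48834554, plus strand): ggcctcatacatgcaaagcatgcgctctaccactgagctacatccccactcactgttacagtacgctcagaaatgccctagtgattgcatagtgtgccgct
Dhrs7b (chr11:60834704-60834804, plus strand): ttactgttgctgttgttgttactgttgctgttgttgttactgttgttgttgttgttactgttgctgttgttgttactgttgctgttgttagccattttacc
Dusp3 (chr11:101982050-101982150, minus strand): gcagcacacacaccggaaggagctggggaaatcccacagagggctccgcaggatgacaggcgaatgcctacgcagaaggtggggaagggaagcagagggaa
Ankrd11 (chr8:123041182-123041282, minus strand): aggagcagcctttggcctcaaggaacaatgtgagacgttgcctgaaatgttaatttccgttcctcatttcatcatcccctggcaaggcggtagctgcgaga
The second set is the 5 strongest regions with GTGGGAA within 100 bp of the summit, centered on that motif, shown because this is the site form that RBPJ is best known to bind.
Sla (chr15:66816551-66816651, minus strand): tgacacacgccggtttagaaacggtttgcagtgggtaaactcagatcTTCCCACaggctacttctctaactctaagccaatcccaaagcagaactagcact
Hip1 (chr5:135468400-135468500, minus strand): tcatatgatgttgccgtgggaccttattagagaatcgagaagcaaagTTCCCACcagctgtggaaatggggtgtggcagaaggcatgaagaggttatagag
Kdm6b (chr11:69410451-69410551, minus strand): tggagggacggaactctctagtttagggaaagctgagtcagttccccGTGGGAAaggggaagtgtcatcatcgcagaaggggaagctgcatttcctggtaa
Irgc1 (chr7:24442422-24442522, minus strand): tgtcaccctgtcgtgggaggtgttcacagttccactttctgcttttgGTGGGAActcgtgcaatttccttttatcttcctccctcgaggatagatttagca
Aig1 (chr10:13833085-13833185, minus strand): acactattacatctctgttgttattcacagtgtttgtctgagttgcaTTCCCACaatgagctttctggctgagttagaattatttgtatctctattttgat
The third set is the strongest first intron region at 6 of the loci shown or named in the study for RBPJ binding, centered on the summit.
Rxra (chr2:27715331-27715431, plus strand): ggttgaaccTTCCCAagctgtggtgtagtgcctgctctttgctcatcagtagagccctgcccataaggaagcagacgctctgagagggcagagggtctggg
Cd36 (chr5:17880166-17880266, minus strand): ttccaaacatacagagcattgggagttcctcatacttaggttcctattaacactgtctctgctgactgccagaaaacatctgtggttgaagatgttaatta
Zeb2 (chr2:45049531-45049631, minus strand): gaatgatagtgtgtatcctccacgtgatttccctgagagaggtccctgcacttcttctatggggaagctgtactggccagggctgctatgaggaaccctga
Tgfbr2 (chr9:116136783-116136883, minus strand): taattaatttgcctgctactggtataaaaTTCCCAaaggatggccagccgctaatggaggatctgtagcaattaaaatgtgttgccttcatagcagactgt
Abca1 (chr4:53149779-53149879, minus strand): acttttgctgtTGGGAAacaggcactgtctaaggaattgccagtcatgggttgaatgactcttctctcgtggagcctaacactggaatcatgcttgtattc
Spi1 (chr2:91097241-91097341, plus strand): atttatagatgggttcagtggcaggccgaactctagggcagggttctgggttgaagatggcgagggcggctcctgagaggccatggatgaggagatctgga
The core was present in the windows of Rxra, Tgfbr2 and Abca1 and not in those of Cd36, Zeb2 and Spi1. Masked repeats made up 90.1% of the Dhrs7b window.

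Width, fold and position were described next. The median width of first intron regions was 601 bp (10% to 90% of regions, 242 to 1530 bp). Their median fold was 5.86 in replicate 1 (range 2.02 to 22.1) and 4.69 in replicate 2 (2.50 to 23.8). Fold was higher in replicate 1 in 3373 regions (72.8%), against 72.5% of later intron regions. Over all peaks of each list, the median fold was 4.06 in replicate 1 and 4.35 in replicate 2. Across the 4633 regions, the Spearman correlation between the libraries was 0.50, a description over regions that share the 2 libraries, against 0.51 for later intron regions. The summits of the 2 libraries were a median of 103 bp apart. At the edges of the rule, the 339 regions 1000 to 1200 bp from a TSS had median folds of 5.84 and 5.02, and the 446 first intron intervals 800 to 1000 bp away, just outside, had 5.84 and 4.69. The 142 first intron intervals over the width limit had median folds of 13.4 and 8.56, against 11.4 and 7.81 for the 68 regions from 2500 to 3000 bp wide.

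**Figure D1:**
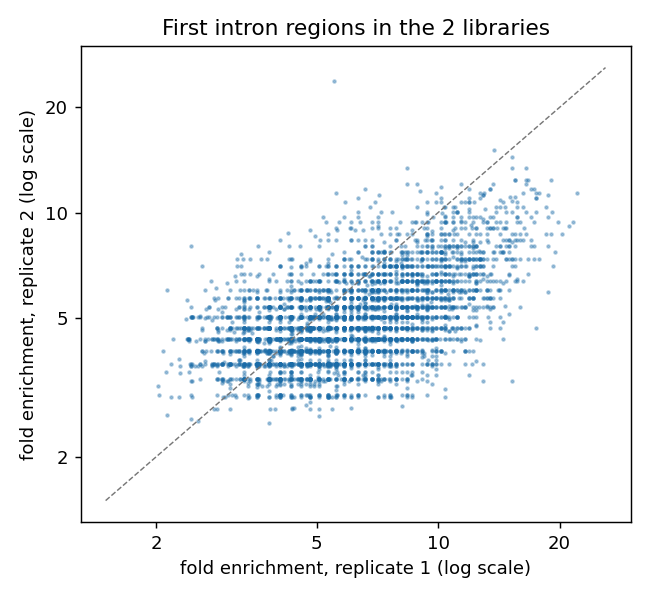
Fold enrichment of each of the 4633 first intron regions in replicate 1 (horizontal axis, log scale) and replicate 2 (vertical axis, log scale), with a dashed line of equal fold. Most points (72.8%) lie below the line, and the region of Mlec stands far above it at 5.52 in replicate 1 and 23.8 in replicate 2.

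The region that stood apart lay in the first intron of Mlec, a carbohydrate-binding protein of the endoplasmic reticulum, 1511 bp from its TSS (chr5:115155767-115157569). Its fold was 5.52 in replicate 1 and 23.8 in replicate 2, and it is named because of these values.

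First intron regions were most frequent in the part of the host intron next to the TSS. When each host intron was split into 5 equal parts, the part next to the TSS held 27.8% of the regions (26.6 to 29.2) and the last part 14.9% (13.9 to 15.9), with a fall from part to part. Taking the host transcript with the nearest TSS favors short distances by itself. The parts were not set against the eligible sequence in each. Within 5000 bp of the host TSS lay 39.9% of the regions, and 73.0% lay within 20000 bp. The nearest annotated TSS was that of the host transcript in 3023 regions (65.2%), so the remaining regions were closer to another start. In 878 regions (19.0%) the midpoint was also in a later intron of another transcript, and 80 regions were in intron 1 of more than 1 gene.

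Whether first introns held more regions than later introns was asked per Mb of eligible sequence, that is, intron sequence outside exons and more than 1 kb from any TSS. First introns held 16.9 regions per Mb (4633 in 274 Mb) and later introns 6.65 per Mb (4050 in 609 Mb). The ratio was 2.54 (exact 95% interval 2.43 to 2.65). The exact binomial p, two-sided, was smaller than the software can represent. The size of the ratio rested on which later introns were counted, and against intron 2 alone it was 1.57. Within the 13831 genes that have both kinds of sequence, of which 2694 held a region, the ratio was 2.47 (2.27 to 2.67, with the variance taken over genes).

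Because first introns lie nearer to the TSS, density was also compared at equal distance to the nearest TSS of any transcript. Distance from the TSS of the host transcript was not held equal. Its median was 7827 bp in first and 35183 bp in later intron regions. From 1 to 2 kb the densities were 48.5 and 17.7 per Mb, a ratio of 2.74 (2.39 to 3.15, adjusted exact p = 1.48e-57). From 2 to 5 kb the ratio was 2.0003 (1.81 to 2.22), from 5 to 10 kb 2.29 (2.07 to 2.54) and from 10 to 20 kb 1.93 (1.76 to 2.12). The ratio was 1.39 from 20 to 50 kb (1.26 to 1.54, adjusted exact p = 4.34e-10). Over all genes, no difference beyond 50 kb passed the test. The ratio was 1.16 from 50 to 100 kb (0.933 to 1.43, adjusted exact p = 0.193) and 0.731 over 100 kb (0.376 to 1.31, adjusted exact p = 0.358), where 13 first intron regions remained. In the replicate 1 list alone, the ratio from 50 to 100 kb was 1.11 and passed the test (adjusted exact p = 0.0336). Over 100 kb the single lists gave 1.18 (adjusted exact p = 0.128) and, in replicate 2, 1.32 (adjusted exact p = 0.0265), so the direction turned there. With intron 2 as the sole comparison, the ratio was 1.69 from 1 to 2 kb, 1.20 from 10 to 20 kb (adjusted exact p = 0.0216) and 0.909 from 20 to 50 kb (adjusted exact p = 0.290). These p-values treat regions as independent, although regions of 1 gene share it.

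**Figure D2:**
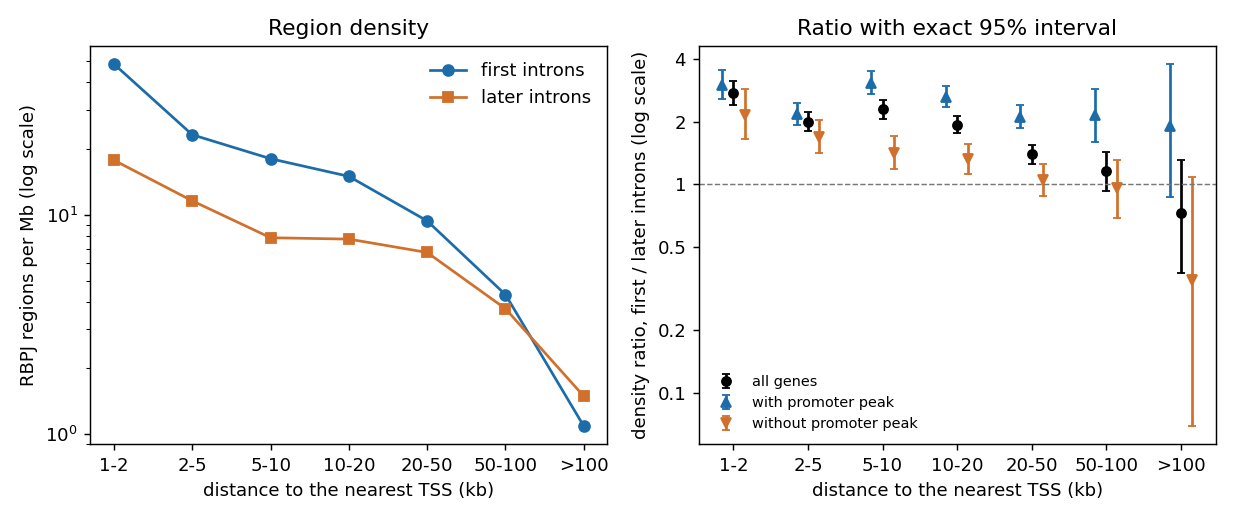
Left, RBPJ regions per Mb (log scale) in first and later introns by distance to the nearest TSS. Right, the ratio of these densities (log scale) with exact 95% intervals, for all genes and for genes with or without a promoter region, with a dashed line at 1. Density in first introns falls from 48.5 to 1.09 per Mb, and the ratio for genes without a promoter region approaches 1 at 20 to 50 kb.

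First intron density went with RBPJ at the promoter of the same gene. A promoter region here is a consensus region with its midpoint within 1 kb of a TSS of the gene, so no region counts on both sides. In genes with a promoter region, first introns held 44.5 regions per Mb and later introns 14.0, a ratio of 3.18 (3.02 to 3.35), which was 1.78 against intron 2 alone. In genes without one, the densities were 6.31 and 3.58 per Mb, a ratio of 1.76 (1.63 to 1.90, adjusted exact p = 2.09e-48). For genes without a promoter region the ratio was 1.05 from 20 to 50 kb (0.878 to 1.26, adjusted exact p = 0.632). For genes with one it was 2.11 (1.86 to 2.39, adjusted exact p = 3.20e-29). From 50 to 100 kb it was 2.16 with a promoter region (1.59 to 2.88, adjusted exact p = 1.78e-06). Without one it was 0.960 there (0.693 to 1.31, adjusted exact p = 0.877). Over 100 kb the ratios were 1.91 with (0.869 to 3.78) and 0.349 without (0.0694 to 1.08), and neither passed the test. The ratio over all distances for genes without a promoter region depended on the setting. It was 1.17 in the replicate 1 list alone, and 1.099 against intron 2 alone (adjusted exact p = 0.0949).

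The host gene had a promoter region for 3360 of 4633 first intron regions (72.5%, 71.2 to 73.8) and for 2505 of 4050 later intron regions (61.9%, 60.3 to 63.3). The odds ratio was 1.63 (Fisher's exact test, two-sided, p = 3.53e-26), and 1.13 for regions with summits within 100 bp (exact p = 0.0327). Within classes of distance to the nearest TSS, the odds ratio over all regions was 1.43 (Mantel-Haenszel interval 1.30 to 1.57). Counted once per host gene, the shares were 68.9% of 1996 genes and 58.9% of 1743 genes, an odds ratio of 1.55 (exact p = 1.54e-10). Among all 21951 protein-coding genes, 6972 (31.8%) had a promoter region. The promoter region was usually the stronger of the pair. The first intron region had the higher lower fold in 976 of 3360 cases (29.0%). Medians were 4.35 for the intron region and 5.69 for the strongest promoter region. This was no trait of first introns, since later intron regions gave 718 of 2505 (28.7%) with the same medians. Regions of 1 gene share its promoter.

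Longer first introns held regions more often. Of 15995 protein-coding genes with eligible first intron sequence, 1996 held at least 1 region (12.5%). For later introns the number was 1743 of 17273 genes (10.1%). Among genes with a promoter region, the share with a first intron region was 7.12% (5.94 to 8.51) at up to 2000 bp of eligible sequence and 67.8% (62.3 to 72.8) above 50000 bp. Among genes without one, the same shares were 0.830% (0.582 to 1.18) and 16.4% (14.2 to 18.9). The intervals of the 2 kinds of gene did not overlap in any of the 6 length classes.

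**Figure D3:**
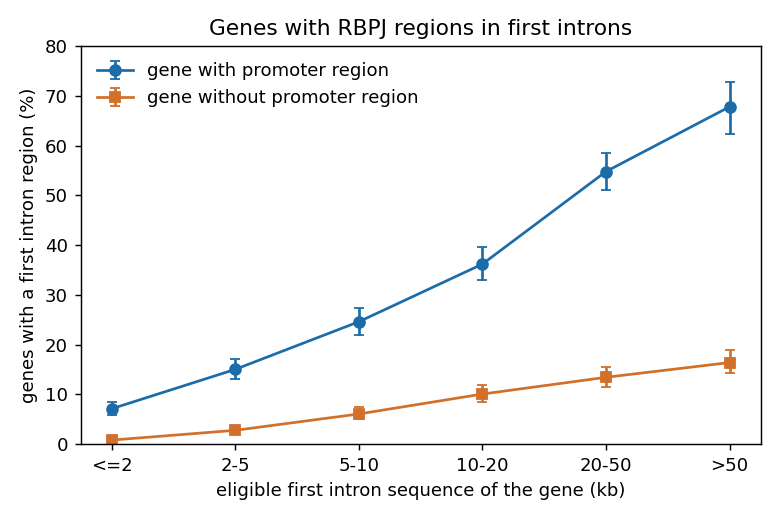
Percent of protein-coding genes with at least 1 first intron region (vertical axis) by eligible first intron sequence in kb (horizontal axis), for genes with and without a promoter region, with Wilson 95% intervals. The share reaches 67.8% with a promoter region and 16.4% without one in the longest class.

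Peak strength differed little between the classes of intron. The lower fold of the 2 libraries was at or above the consensus median in 46.0% of first and 45.4% of later intron regions, a difference of 0.607 percentage points (Newcombe interval -1.49 to 2.71, Fisher's exact test, adjusted p = 0.829). In the single lists, where peaks need not recur, first intron peaks were at or above their list's median more often, with odds ratios of 1.15 in replicate 1 (adjusted exact p = 6.24e-14) and 1.24 in replicate 2 (6.10e-12). First intron peaks also recurred more often, by less where summits had to lie within 100 bp (odds ratio 1.20 in place of 1.74 for replicate 2). Of replicate 2 peaks, 71.6% in first introns and 59.2% in later introns overlapped a peak of replicate 1 (difference 12.4 points, 10.99 to 13.8, adjusted exact p = 1.69e-64). Of replicate 1 peaks, 21.9% and 18.9% overlapped a peak of replicate 2 (difference 2.996 points, 2.26 to 3.73, adjusted exact p = 1.39e-15). For replicate 1 the difference was not called among peaks with a −log10 q of 5 or more (odds ratio 1.07, adjusted exact p = 0.0589). The median distance to the nearest TSS was 5383 bp in first and 15324 bp in later intron regions, and the part of this distance in the recurrence was not tested.

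Motifs at the summits were read to ask which factors' sites the first intron regions carry. Each of 22 motifs was searched, on either strand, up to 100 bp from the summit and in a window of the same length 1000 bp toward the 3′ end of the gene, in the 2303 regions whose flank touched no peak. Motifs of macrophage factors stood at summits. PU.1, the lineage factor of macrophages, had its site GAGGAAGT in 8.99% of summit and 0.738% of flank windows (McNemar's exact test, adjusted p = 6.76e-42). The CEBP motif TTGCNNAA, bound by myeloid CEBP factors, was in 17.6% and 6.21% (adjusted exact p = 4.30e-32). RUNX, with TGTGGTT, was in 8.99% and 4.13% (6.33e-11). IRF, with GAAANNGAA, was in 9.21% and 5.25% (1.82e-06), and AP-1, with TGANTCA, in 9.60% and 5.95% (2.36e-05). As a measure of base composition, each motif was also read backward without complementing. In this form IRF was in 7.69% of summit windows, close to its forward share. AP-1 was in 6.43%, below its forward share of 9.60%. The backward shares of PU.1 (1.22%), CEBP (2.65%) and RUNX (3.13%) were far below the forward ones. These 5 motifs passed the test of summit against flank under all 13 alternatives, with smaller odds ratios in the single lists. The odds ratio of summit against flank was 12.5 for PU.1 (3.84 in the replicate 1 list alone and 5.202 in that of replicate 2) and 3.21 for CEBP (1.68 and 1.80). For RUNX it was 2.39 (1.30 and 1.67), for IRF 1.81 (1.18 and 1.36) and for AP-1 1.66 (1.48 and 1.54).

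Another 6 motifs passed the test, each in fewer regions, and each lost its call under at least 1 alternative. They were MITF-TFE with TCACATG (4.56% against 2.52%), the E-box CACGTG (4.21% against 2.91%), KLF with CCACACCC (2.74% against 1.52%), ETS with CCGGAAGT (0.782% against 0.130%), NF-kB with GGAANTTCC (0.782% against 0.217%) and CTCF (0.434% of summits, 10 windows, and no flank). Backward, the E-box was in 3.73% and ETS in 0.608% of summit windows, close to their forward shares. The backward shares were 2.65% for MITF-TFE, 1.09% for KLF, 0.261% for NF-kB and 0% for CTCF. The PU.1 and ETS motifs share their last letters, and a match is a match of letters, not an occupied site.

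For the motif of RBPJ itself, no difference between summits and flanks passed the test, and alternatives moved it in both directions. TGGGAA was in 416 of 2303 summit windows (18.1%) and in 408 flank windows (17.7%), a difference of 0.347 percentage points (-1.82 to 2.52, McNemar's exact test, adjusted p = 0.821). GTGGGAA, which contains TGGGAA, was in 4.78% and 3.86% (difference 0.912 points, -0.282 to 2.11, odds ratio of discordant pairs 1.24, adjusted exact p = 0.212). Among regions more than 3 kb from any TSS, GTGGGAA was more frequent at summits (odds ratio 1.51, adjusted exact p = 0.0425). In the replicate 1 list alone, TGGGAA was less frequent at summits (odds ratio 0.910, adjusted exact p = 0.00465). Read backward without complementing, TGGGAA was in 10.1% of the summit windows. No difference between summits and flanks passed the test for SMAD with CAGACA, which was in 19.4% of both, STAT with TTCNNNGAA (7.47% against 5.91%, adjusted exact p = 0.0695), the nuclear receptor site AGGTCA (14.5% against 13.4%, 0.328) or MAF with TGCTGA (13.4% against 15.2%, 0.131). These calls depended on the setting. STAT was more frequent at summits in 5 alternatives, with odds ratios from 1.17 in the replicate 1 list alone (adjusted exact p = 0.00132) to 1.47 with the 5′ flank (0.00785). MAF was less frequent in both single lists (0.821 and 0.842, adjusted exact p = 1.65e-08 and 0.0103) and with intron 1 in every transcript (0.789, 0.0264). SMAD was less frequent in the replicate 1 list (0.894, 5.24e-04), and the nuclear receptor site was more frequent with the 5′ flank (1.39, 0.00172).

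**Figure D4:**
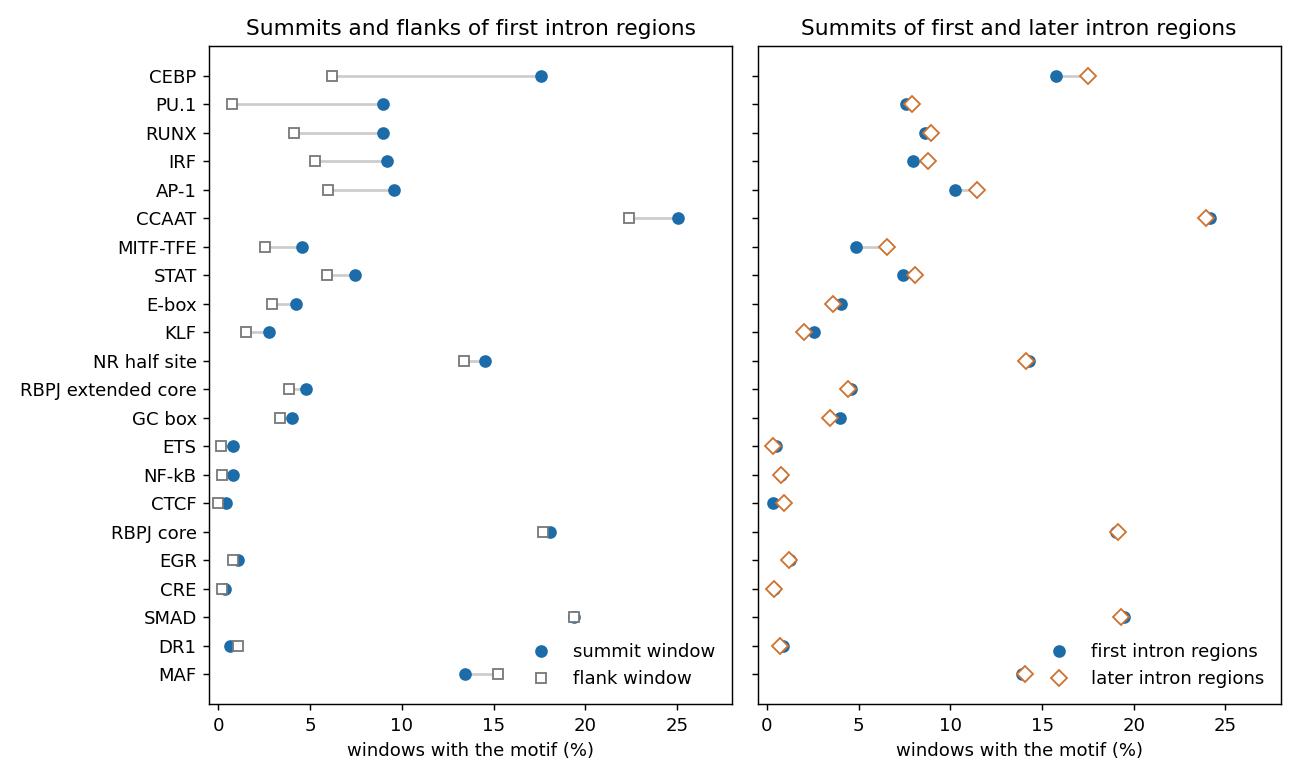
Percent of windows with each motif (horizontal axis). Left, summit and flank windows of the 2303 first intron regions with a usable flank. Right, summit windows of all 4633 first and 4050 later intron regions. CEBP and PU.1 have the widest gaps between summit and flank, and RBPJ core lies at 18.1% and 17.7%, while in the right panel CTCF is at 0.302% and 0.914% and MITF-TFE at 4.88% and 6.57%.

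Of the 22 motifs, 2 differed in share between first and later intron regions, both less frequent in first introns. TGGGAA was in 19.0% of first and 19.1% of later intron regions (difference -0.0985 points), against 18.8% of all consensus regions, and GTGGGAA in 4.58% and 4.44%, against 4.64%. CTCF, a factor of chromatin boundaries, was less frequent, with 14 first (0.302%) and 37 later intron regions (0.914%; odds ratio 0.329, Fisher's exact test, adjusted p = 0.00449). Within classes of distance to the nearest TSS its odds ratio was 0.287 (Mantel-Haenszel interval 0.145 to 0.565). MITF-TFE was in 4.88% and 6.57% (odds ratio 0.730, adjusted exact p = 0.00874), a call that did not hold within distance classes (Mantel-Haenszel test, adjusted p = 0.0977). Neither call held among regions with a −log10 q of 5 or more, and the MITF-TFE call also did not hold in the replicate 2 list alone (odds ratio 0.859, adjusted exact p = 0.2005). At least 1 of the PU.1, CEBP, AP-1, MITF-TFE and RUNX motifs was in 39.0% of first and 43.0% of later intron regions, a difference of -3.96 points (-6.03 to -1.89). This group was put together after its values were seen and includes MITF-TFE, already called lower, so its interval is not a test. Within distance classes none of the 5 motifs was called. Their odds ratios there were 0.991 for PU.1, 0.960 for CEBP, 0.956 for AP-1, 0.771 for MITF-TFE and 1.06 for RUNX. The group was not examined within distance classes. GC content of the windows had a median of 43.8% in first and 44.3% in later intron regions.

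Within the first intron regions, 7 motifs were read over 5 classes of lower fold, from the weakest to the strongest. PU.1 was in 5.39%, 5.18%, 6.90%, 9.29% and 11.003% of the regions, and CEBP in 13.3%, 13.4%, 13.8%, 16.3% and 21.9%. AP-1 (10.2%, 8.10%, 8.63%, 10.7% and 13.7%) and MITF-TFE (4.42%, 4.54%, 3.56%, 4.75% and 7.12%) were highest in the strongest class without a steady course below it. The GC box GGGCGG, a site of promoters, was in 3.02% of the weakest and 6.04% of the strongest class. TGGGAA was in 17.6% of the weakest and 21.5% of the strongest class, whereas GTGGGAA was in 4.64% of both. Read backward without complementing, the GC box was in 2.48% of the weakest and 5.39% of the strongest class, close to its forward shares. GTGGGAA read backward was in 2.27% and 4.31%, and TGGGAA in 10.7% and 11.003%. The backward shares of PU.1 were 0.863% and 0.755%, and those of CEBP 2.48% and 3.45%. For AP-1 they were 5.50% and 6.58%, and for MITF-TFE 2.91% and 1.73%. These are shares of 926 or 927 regions a class and were not tested.

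The strongest first intron regions lay at genes of several kinds. The highest was in Trim7, a ubiquitin ligase, with folds of 15.2 and 14.4 in replicates 1 and 2. Dhrs7b, a peroxisomal reductase of ether lipid synthesis, had 13.7 and 15.1, Dusp3, a protein phosphatase, 16.5 and 13.4, and Ankrd11, a chromatin regulator, 15.2 and 13.4. Fold was higher in replicate 1 at each of these genes apart from Dhrs7b. The next were Zfp395, a zinc finger factor (15.5 and 12.4), Fpr3, a formyl peptide receptor family member (16.5 and 12.4), Ski, a corepressor that restrains TGFβ signaling (16.7 and 12.4), Irak2, a kinase of Toll-like and IL-1 receptor signaling (15.5 and 12.4), and Ube2d3, a ubiquitin-conjugating enzyme (13.7 and 12.0). Of these 9 genes, Fpr3 alone had TGGGAA within 100 bp of the summit. Host genes of the strongest regions with GTGGGAA were Sla, an adaptor that dampens antigen receptor signaling (16.2 and 11.4), Hip1, an endocytic adaptor (22.1 and 11.4), and Kdm6b, a demethylase of histone H3K27 (18.8 and 11.2). They were followed by Irgc1, of the immunity-related GTPase family (21.2 and 9.18), and Aig1, a hydrolase of fatty acid esters (12.4 and 9.04).

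Many genes held several regions. Of the 1996 host genes, 1055 had 1 region, 410 had 2, 388 had 3 to 5 and 143 had 6 or more, and neighboring regions of 1 gene were a median of 2598 bp apart. The gene model with the most, Gm20388, had 69 regions in a first intron that contains 71 other protein-coding genes, so its regions need not belong to it. Leaving out every intron that contains another whole protein-coding gene kept 4497 first intron regions and a density ratio of 2.54. Sgms1, a sphingomyelin synthase, had 19 regions in 139 kb of eligible first intron sequence, and Adipor2, an adiponectin receptor, had 18 in 44.3 kb. Mbnl1, a regulator of RNA splicing, and Ubash3b, a phosphatase that restrains receptor signaling, had 17 each. The strongest region of Adipor2 had folds of 13.2 and 8.37, 10247 bp from the host TSS, and that of Sgms1 10.1 and 9.04, 24426 bp away. The strongest of Mbnl1 had 8.11 and 8.03, and that of Ubash3b 10.4 and 8.03.

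Loci shown or named in the study for RBPJ binding held many first intron regions. Of the 10 that have eligible sequence, 7 held at least 1 (70.0%, 39.7 to 89.2), against 12.5% of all genes, and 34 regions in all, with a median eligible length of 13104 bp. The study picked these loci on RBPJ binding, so the share is not independent evidence. Csf2rb2, Mmp8 and Casp4 had eligible sequence and no first intron region, although each had a promoter region. Tgfbr2, the receptor for the niche signal TGFβ, had 9 regions from 1351 to 39343 bp from the TSS of their host transcripts. Their folds ran from 3.53 to 8.63 in replicate 1 and from 3.68 to 6.02 in replicate 2. The strongest 2 had 8.63 and 6.02 at 38422 bp, and 6.85 and 6.02 at 1351 bp. Tgfbr2 had no later intron region.

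Zeb2, a transcription factor that maintains macrophage identity, had 9 regions from 1170 to 75144 bp from its TSS and 1 in later introns. The strongest had folds of 12.2 and 6.69 and lay 61095 bp from the TSS, and the second, at 24565 bp, had 10.7 and 4.95. The other 7 had 5.41 or less in replicate 1 and 5.25 or less in replicate 2. Cd36, a scavenger receptor for lipids, had 8 regions in the first introns of 2 transcripts and no promoter region. Of these, 4 stood above the rest in both libraries, with folds of 14.2 and 8.03, 12.6 and 7.36, 13.5 and 6.69, and 13.2 and 6.02. The other 4 had 6.85 or less in replicate 1 and 5.02 or less in replicate 2.

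Abca1, the exporter of cholesterol, had 3 regions, with folds of 12.4 and 4.76 at 10712 bp, 4.71 and 6.36 at 9367 bp, and 4.82 and 3.35 at 4872 bp. The libraries thus ranked the first 2 in opposite order. Spi1, which encodes PU.1, had 3 regions in its first intron of 2436 bp, with folds of 5.84 and 4.69, 4.28 and 5.61, and 5.84 and 4.02. Rxra, the retinoid X receptor that the study is about, had a single region 4973 bp from the TSS, with folds of 14.0 and 10.04, and no promoter region. Ppt1, a lysosomal thioesterase, had a single region, in masked repeat sequence, with folds of 2.68 and 4.35.

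**Figure D5:**
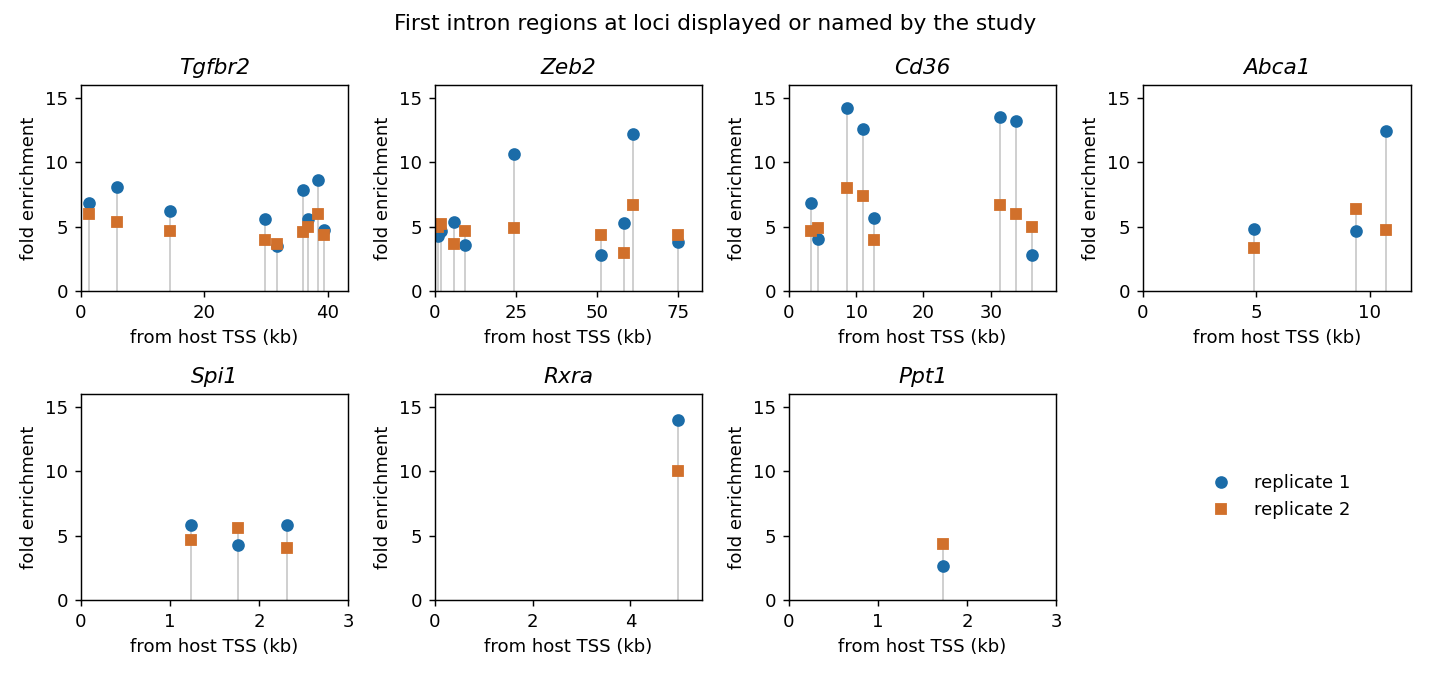
Fold enrichment (vertical axis) of each first intron region at 7 study loci against the distance of its midpoint from the TSS of the host transcript in kb (horizontal axis, own scale in each panel), with circles for replicate 1 and squares for replicate 2. Regions of Cd36 and Tgfbr2 belong to different transcripts of the gene and are placed by their own TSS. Rxra stands at 14.0 and 10.04, and the regions of Spi1 lie between 4.02 and 5.84.

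Genes of the macrophage were read by list, as counts beside the 12.5% of all genes with a first intron region and the 10.1% with a later one. The lists share members (Spi1, Rxra and Zeb2 are also transcription factors of the list below, for example), and longer first introns hold regions more often, so the median eligible length is given beside each. It was 4479 bp over all genes. Genes with a promoter region (31.8% of all) also held first intron regions more often at each length. Of genes with eligible sequence, 12 of 13 transcription factors, 13 of 22 AM identity and 13 of 17 niche signal genes had one. So did 17 of 20 Notch pathway, 1 of 8 canonical Notch target, 17 of 25 lipid metabolism and 9 of 13 pattern recognition genes. It was present in 0 of 15 neuronal and 4 of 15 other lung cell genes. Its part in these shares was not tested. Among AM and macrophage transcription factors, 9 of 13 genes held a first intron region (69.2%, 42.4 to 87.3, median 7902 bp). Besides Rxra and Zeb2, the strongest were in Pparg, the nuclear receptor that AM differentiation needs (folds 14.7 and 8.03), and Maff, a small MAF factor (11.4 and 7.36). Some others were named beyond the 4 strongest of the list after their values were seen. Mitf had 11 regions, Tfec 4, Irf8 1, and Runx1 1 in its first intron and 22 in later introns. Eligible sequence of Runx1 was 5992 bp in first and 206776 bp in later introns.

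Among AM identity genes, 10 of 22 held one (45.5%, 26.9 to 65.3, median 3562 bp), and 16 of 28 held a later intron region (57.1%). The strongest were in F7, coagulation factor VII (18.8 and 9.71), Lpl, lipoprotein lipase (7.87 and 7.03), Olr1, a receptor for oxidized lipoprotein (12.7 and 6.36), and Ear1, an eosinophil-associated ribonuclease (7.21 and 6.02). Masked repeats made up 69.7% of the Ear1 summit window. Of the niche signal genes, 9 of 17 held a first intron region (52.9%, 31.0 to 73.8, median 8741 bp), against 3 of 17 for later introns. Besides Ski with 14 regions, the strongest were in Tgfb1, the ligand TGFβ1 (8.63 and 8.91), Csf1r, the receptor for M-CSF (10.1 and 7.71), and Csf2rb, the shared beta chain of the GM-CSF receptor (6.08 and 6.02).

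Genes of the Notch pathway held first intron regions in 10 of 20 cases (50%, 29.9 to 70.1, median 12902 bp), and in 8 of 27 for later introns (29.6%). All 3 Mastermind coactivators were among them, with 6 regions in Maml1 (strongest 11.9 and 10.04), 7 in Maml3 (7.10 and 6.69) and 4 in Maml2 (11.7 and 6.69). Their first introns differ in length, with 23433 bp of eligible sequence in Maml1, 303553 bp in Maml3 and 291716 bp in Maml2. Adam17, a protease that sheds cell surface proteins including Notch, had 3 (10.1 and 7.36). Among other genes of the list, named after their values were seen, the receptor Notch2 had 4 first intron regions, Notch1 none in the 862 bp of sequence that were eligible, and Rbpj itself 4. All 7 of these genes had a promoter region. Canonical Notch targets were at the background: 1 of 8 genes held a first intron region (12.5%, 2.24 to 47.1, median 3259 bp), the survival gene Bcl2, which had 2, the stronger with folds of 8.11 and 7.70. The other 7 held none, Hey2, Heyl and Myc among them. Hes1 and Hey1 have no eligible first intron sequence, so nothing can be read there.

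Lipid metabolism genes held one in 15 of 25 cases (60.0%, 40.7 to 76.6, median 6767 bp), against 10 of 27 for later introns (37.0%). Besides Cd36, the strongest were in Soat1, which esterifies cholesterol (17.5 and 11.05), Cpt1a, which brings fatty acids into mitochondria (7.61 and 7.36), and Dgat1, an enzyme of triglyceride synthesis (10.4 and 7.03). Abcg1, a sterol exporter named after its values were seen, had 3 first intron and 23 later intron regions. Its eligible sequence was 3780 bp in first and 46944 bp in later introns. Pattern recognition genes held one in 5 of 13 cases (38.5%, 17.7 to 64.5, median 3568 bp), and a later intron region in 8 of 13. The strongest were in Nod1 (9.39 and 9.04), Nlrc4 (6.34 and 9.71), Clec4n, or Dectin-2 (4.91 and 5.02), and Tlr4 (4.06 and 4.02). Masked repeats made up 70.1% of the summit window in Nlrc4 and 70.6% in Tlr4.

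Lists of other cells ran from none to above the share of all genes. Neuronal genes held none in 15 (0%, up to 20.4%) and a later intron region in 2 of 15 (13.3%), with a median of 212199 bp of eligible first intron sequence. T and B lymphocyte genes held one in 3 of 13 (23.1%, 8.18 to 50.3, median 8409 bp), above the 12.5% of all genes: Bach2, a repressor also known in macrophages (12.9 and 7.36), Ms4a1, which encodes CD20 (12.9 and 6.69), and Tox (5.07 and 4.35). None of the 13 lymphocyte genes had a promoter region. Other lung cell genes held one in 2 of 15 (13.3%, 3.74 to 37.9, median 3992 bp), the endothelial gene Pecam1 (4.31 and 4.95 at its strongest) and the epithelial gene Epcam (3.60 and 4.69).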

How the data were processed

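RBPJ peak lists of 2 libraries of sorted WT AMs were used. Upstream, the submitters' notes name CASAVA and bcl2fastq (2.20.0.422) for demultiplexing, then cutadapt, Bowtie2 (mm10) and SAMtools. The authors called peaks in each library with MACS3, against input, with q up to 0.05. Each deposited list gives the fold of the summit over background (a ratio), −log10 p and −log10 q, and a display score, which the authors' caller derived from q and which was not used. The inputs had no file of their own. Read depth is not part of these values, so intervals cover counting error over regions, and with 2 libraries that may be technical replicates precision between animals is unknown.

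Overlapping peaks (at least 1 bp) were merged. Positions came from GENCODE vM21 basic transcripts and sequence from RefSeq GRCm38.p6, on which all peaks lay within the chromosomes. Densities were compared with exact binomial tests, shares by Fisher's exact test (Newcombe intervals), and summits with flanks by McNemar's exact test, all two-sided. P-values were adjusted by the Benjamini-Hochberg method over 7 distance classes, 22 motifs or the libraries, with calls at 0.05. CTCF and a DR1 motif were searched by degenerate letters. The lists of genes carry no test. The members and lists were chosen with earlier results of these data known. Named genes were the hosts of the 10 strongest regions, the 5 genes with most regions, all regions at the study loci, up to 4 genes in each other list and the 5 strongest regions with GTGGGAA. Any gene named beyond that was chosen after its values were seen. A few of these items are not reported here. Scripts ran in Python 3.11.15 with SciPy 1.17.1, pandas 2.3.3, statsmodels 0.14.6 and pysam 0.24.0 and were tested on simulated data. The alternatives were 18 planned ones and 2 added after the data were seen (introns that hold another whole gene left out, and the density ratio within genes).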

Additional observations from a re-analysis of the deposited data

How the results depend on the processing

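The density ratio of first to later introns, the ratio for genes with a promoter region, the promoter share of host genes and the recurrence of replicate 2 peaks kept their direction and their call under every alternative run for them, although all 4 shrank under some. The first 2 fell to 1.57 and 1.78 against intron 2 alone, and with summits within 100 bp the promoter share fell to an odds ratio of 1.13 (exact p = 0.0327) and the recurrence to 1.20. The number of first intron regions was 2037 at a −log10 q of at least 5, 2498 with summits within 100 bp, 3032 at more than 3 kb from any TSS, 1996 with 1 region per host gene, and from 8378 to 23192 in the list of a single library. At a −log10 q of at least 5 the recurrence of replicate 1 was no longer called (odds ratio 1.07, adjusted exact p = 0.0589), and the Spearman correlation of the libraries was 0.45. This correlation was 0.54 with summits within 100 bp and with no width limit, and 0.65 with 1 region per host gene. The strength of first against later intron regions passed the test in single lists (odds ratios 1.15 to 1.24). The density ratio for genes without a promoter region was 1.099 against intron 2 alone. Motifs less frequent in first introns numbered 2 in the main test, 0 under the stricter q, 0 against intron 2 alone and with 1 region per gene, and 1 beyond 3 kb, within distance classes and in windows of 50 bp. In single lists they numbered 1 to 2, and 1 motif was more frequent. Motifs more frequent at summits than at flanks numbered 11, and 6 with the stricter q or with summits within 100 bp. Those less frequent numbered 0 in the main test, 1 with the 5′ flank or with intron 1 in every transcript, and 1 to 4 in single lists.

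Direction turned in a few cases. The density ratio at 20 to 50 kb was 0.909 against intron 2 alone, and over 100 kb it was 1.18 to 1.32 in single lists. Odds ratios of summit against flank in single lists ran from 0.910 to 1.03 for RBPJ core, 0.894 to 0.970 for SMAD, 0.881 to 1.06 for KLF and 0.751 to 1.28 for the GC box, which was 0.411 with the 5′ flank. The cause was not tested. No paired analysis was possible because the inputs that share replicate numbers with the RBPJ libraries have no list of their own. Density was not run with 1 region per gene, and recurrence was not run there or in single lists. With 2 libraries, leaving 1 out removes the test of recurrence itself.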
